A study of Mus musculus with 13 samples.

Results

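H3K27me3, the trimethyl mark on lysine 27 of histone H3, was followed over 9 genes next to Rosa26 on mouse chromosome 6 (Rad18, Srgap3, Thumpd3, Setd5, Lhfpl4, Mtmr14, Brpf1, Ogg1 and Camk1) and over the 1 Mb of chromosome that holds them. The members were taken by name and position, not by level: the 20 promoter rows of the 9 genes, of 77489 rows of 55232 genes in the table, and the 290 regions that touch the window, of 57909 regions in all. Those regions run over chr6:112601486-113601386 (mm10), and Gt(ROSA)26Sor, the gene at Rosa26, lies between them at chr6:113067428-113077244. Of the 290 regions, 196 had been called in both genotypes, 54 in WT alone and 40 in DKO alone, and 289 lay wholly within the window.

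The libraries came from a male CAST/B6 mouse embryonic stem cell line with a Rosa26 recombination (RMCE) site, kept on doxycycline for 3 days and fixed with 0.6% formaldehyde, in both genotypes alike. The mutant cells were a double knockout (DKO) of SAFB and SAFB2, nuclear proteins that bind RNA, with 4 H3K27me3 and 2 total H3 libraries, set against WT cells with 5 H3K27me3 and 2 total H3 libraries. DKO replicate 1 for H3K27me3 carries the number 4 in its label and the other DKO replicates for that mark the number 13. Both total H3 libraries of DKO are also listed under 13, and what these numbers stand for is not stated. The WT libraries for H3K27me3 have different name stems, also not explained: rmce for replicates 1, 4 and 5, wt20 for replicate 2 and wt44 for replicate 3. The sources used here do not give what doxycycline switched on, nor whether the counts hold 1 parental allele or both. No label says that the libraries are separate cultures, so every p-value measures only the spread between libraries, which may be technical. The knocked-out genes cannot be checked with a histone mark.

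Polycomb repressive complex 2 places H3K27me3 on nucleosomes, and in embryonic stem cells the mark sits mainly on CpG-rich promoters of silent developmental genes, from which it can spread over neighbouring chromatin. Rosa26 itself is a non-coding gene, Gt(ROSA)26Sor, that is transcribed in nearly all mouse tissues, which is why it is often used to host transgenes. Its neighbours are a mixed group. Rad18, a ubiquitin ligase, and Ogg1, a DNA glycosylase that removes oxidised guanine, act in DNA repair. Setd5, a SET-domain protein, and Brpf1, a scaffold of histone acetyltransferase complexes, act on chromatin. Srgap3, a GTPase-activating protein, Lhfpl4, a partner of GABA receptors at inhibitory synapses, and Camk1, a calmodulin-dependent kinase, are known for roles in neurons. Thumpd3 is a tRNA methyltransferase and Mtmr14 a phosphoinositide phosphatase.

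The H3K27me3 libraries held 2244851 to 3035866 region counts in DKO and 1818647 to 3134799 in WT, and the total H3 libraries held 525847 and 736566 in DKO and 636691 and 699720 in WT. Among marker promoters, the leading rows of 5 developmental regulators had means of 183 to 397 CPM over the 9 libraries, those of 5 stem cell genes 0 to 37.0 CPM and those of 5 fibroblast genes 0.449 to 109 CPM, where CPM are counts scaled to a common library size. The rows of Nanog, Zfp42, Fn1, Vim and Col1a2 kept only 3 to 594 bases free of other rows, so the lists are not set against each other. WT replicate 1 stood apart on this chromosome: regions of chromosome 6 outside the window took 18.0% of its region counts, against 22.0% to 23.8% in the other WT libraries and 19.1% to 21.7% in DKO. Where leaving it out changed the call on a named gene or region, the value without it is given too.

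The 4 promoters whose rows stand clear of any other row are shown, since their counts lose nothing to overlap and they differ in both CG number and level. Each is the RefSeq promoter of assembly GRCm38.p6, 300 bases read 5′ to 3′ on the gene's strand, with every CG in capitals. They are Lhfpl4 at chr6:113195335-113195634 (minus strand), Mtmr14 at chr6:113237593-113237892 (plus), Camk1 at chr6:113343873-113344172 (minus) and an internal start of Setd5 at chr6:113104685-113104984 (plus).
Lhfpl4: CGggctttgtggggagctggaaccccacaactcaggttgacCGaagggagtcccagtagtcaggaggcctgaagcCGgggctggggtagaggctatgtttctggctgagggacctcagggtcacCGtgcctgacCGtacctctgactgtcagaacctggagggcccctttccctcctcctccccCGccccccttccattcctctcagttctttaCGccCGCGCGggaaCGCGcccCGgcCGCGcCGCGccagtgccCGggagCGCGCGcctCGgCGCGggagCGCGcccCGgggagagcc
Mtmr14: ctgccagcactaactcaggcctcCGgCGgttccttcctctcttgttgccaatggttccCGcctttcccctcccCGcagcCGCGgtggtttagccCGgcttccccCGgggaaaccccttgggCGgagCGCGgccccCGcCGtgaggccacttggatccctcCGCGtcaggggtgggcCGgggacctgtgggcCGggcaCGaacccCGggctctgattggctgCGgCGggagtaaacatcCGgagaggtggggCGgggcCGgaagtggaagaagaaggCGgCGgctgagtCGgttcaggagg
Camk1: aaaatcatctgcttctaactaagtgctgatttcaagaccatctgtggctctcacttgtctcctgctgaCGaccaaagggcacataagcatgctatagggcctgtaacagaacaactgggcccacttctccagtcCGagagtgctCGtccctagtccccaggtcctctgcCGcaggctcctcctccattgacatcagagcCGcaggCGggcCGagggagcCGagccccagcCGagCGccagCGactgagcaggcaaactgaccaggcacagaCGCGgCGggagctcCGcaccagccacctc
Setd5: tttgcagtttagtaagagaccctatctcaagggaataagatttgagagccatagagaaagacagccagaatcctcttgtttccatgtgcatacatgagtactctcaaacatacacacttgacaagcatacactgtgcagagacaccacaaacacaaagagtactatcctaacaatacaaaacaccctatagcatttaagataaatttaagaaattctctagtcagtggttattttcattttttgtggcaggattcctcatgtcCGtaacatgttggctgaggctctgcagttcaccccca
The motif searched was CG, which reads the same on both strands, and 94.6% of 32851 RefSeq promoters of this length hold it. Lhfpl4 and Mtmr14 each hold 27 CG, a number that 15.5% of those promoters reach, and both have 69.7% G and C. Camk1 holds 15 and the Setd5 start 1, where the median over those promoters is 7. Among the other members, all matched by symbol, Rad18 holds 27, Thumpd3 26, Brpf1 25, Ogg1 25 and Srgap3 10.

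Promoter rows run from 2000 bases before to 1000 after an annotated start, and 13 of the members' 20 rows were too low to be tested. All 13 overlap other rows, and the counting command in the file header has no option to count a read that touches more than 1 row. All 4 rows of Rad18 together held 1 count and all 6 rows of Brpf1 held 8. Of the rows of Thumpd3, Ogg1 and Srgap3 that were tested, 923, 775 and 512 of the 3001 bases were free of another row, so their levels are not set beside those of other genes.

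None of the 7 tested rows of these genes changed between DKO and WT, where 0.628% of all 32647 tested rows were called either way (edgeR quasi-likelihood test, Benjamini-Hochberg adjusted p under 0.05). The mark was high at Lhfpl4, which had 136.6, 134.9, 108.8 and 137.5 CPM in the 4 DKO libraries, against 137.3, 127.8, 140.5, 134.6 and 144.9 CPM in the 5 WT libraries. DKO replicate 3 was the lowest of the 9, and the other 3 DKO libraries lay within the WT range. The log2 fold change of DKO over WT was -0.09 ± 0.12 (SE; edgeR adjusted p = 0.870). The Lhfpl4 row stood above 97.0% of all tested rows, some of which lose counts to overlap, so such ranks are rough.

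At Mtmr14, whose promoter has as many CG as that of Lhfpl4, the DKO libraries had 27.1, 19.9, 22.8 and 25.0 CPM, against 23.4, 17.9, 22.0, 19.9 and 15.4 CPM in WT. Its row stood above 64.5% of all tested rows and the groups overlapped, with a log2 difference of 0.28 ± 0.22 (edgeR adjusted p = 0.717). Its start lay 2608 bases from the nearest region, whereas the start of Lhfpl4 lay inside a region of 8260 bases.

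Camk1 had 83.4, 73.0, 68.5 and 80.0 CPM in DKO and 60.4, 93.5, 84.3, 78.8 and 90.9 CPM in WT. WT replicate 1 was the lowest library and the DKO values lay within the WT range (log2 -0.10 ± 0.14, edgeR adjusted p = 0.889). The internal start of Setd5, with 1 CG, carried 30.1, 37.6, 38.8 and 54.2 CPM in DKO and 34.1, 56.4, 26.9, 48.6 and 43.9 CPM in WT. The DKO libraries lay within the WT range (log2 -0.05 ± 0.18, edgeR adjusted p = 0.959), and the row stood above 85.8% of all tested rows. The order of levels among the 4 clear rows was Lhfpl4, Camk1, Setd5 and Mtmr14, in DKO and in WT, and no library of Mtmr14 reached the lowest of Lhfpl4 or Camk1.

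The partly counted rows gave a mean of 16.8 ± 3.5 CPM in DKO and 19.3 ± 5.3 in WT for Thumpd3 (log2 -0.20 ± 0.23), of 10.6 ± 2.6 in DKO and 10.1 ± 4.1 in WT for Ogg1 (log2 0.12 ± 0.32) and of 8.51 ± 1.8 in DKO and 10.8 ± 3.5 in WT for Srgap3 (log2 -0.39 ± 0.33; SD over 4 DKO and 5 WT libraries). Their adjusted p-values in edgeR lay at 0.840, 0.945 and 0.755, and in each the groups overlapped. Over all 28 tested rows of the window, 19 were lower and 9 higher in DKO, with a median log2 difference of -0.07 against -0.013 over all rows. None was called by edgeR or by DESeq2, and 1 had an unadjusted p under 0.05. The highest rows of other genes were those of Cpne9, a copine, with 153.5 ± 19.5 CPM in DKO and 153.7 ± 20.5 in WT, Il17rc, an interleukin receptor subunit, with 128 ± 9.1 in DKO and 150 ± 24 in WT, and Creld1 with 114 ± 8.6 in DKO and 122 ± 20 in WT.

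**Figure D1:**
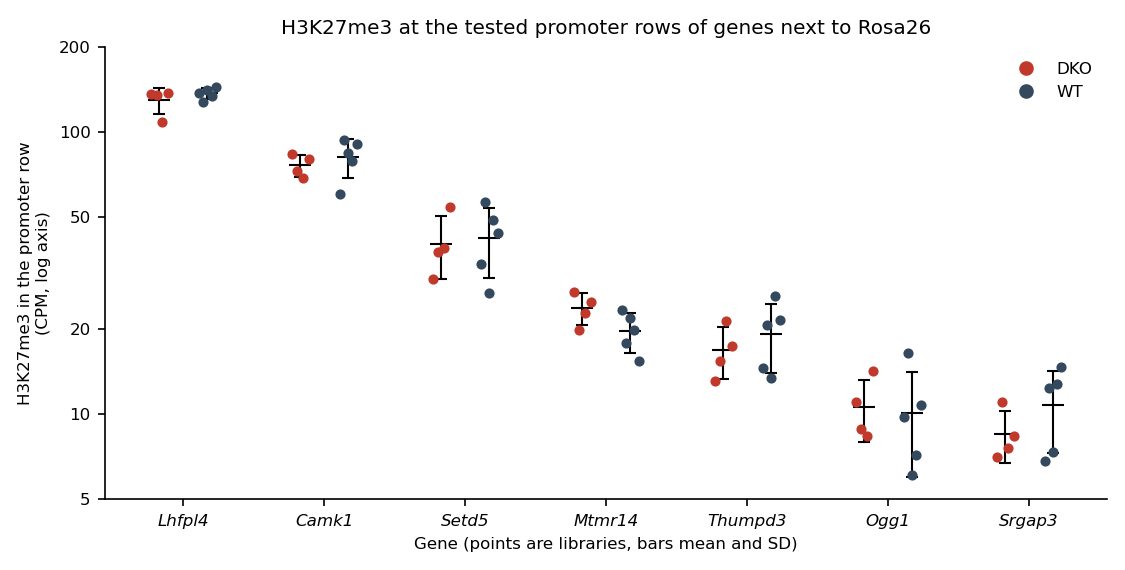
H3K27me3 in the 7 tested promoter rows (vertical log axis, CPM), with 1 point per library, DKO at the left and WT at the right of each gene, and bars for the mean and SD of 4 DKO and 5 WT libraries. The groups overlap at every gene, and Lhfpl4 is the highest of the rows that overlap no other.

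Called regions lay densely around these genes. Regions called in either genotype covered 45.8% of the window, where the other 145 windows of 1 Mb along chromosome 6 had a median of 13.6%. The window ranked 6 of 146 in cover. Dense cover was not particular to it: the 1 Mb above it had 55.2% (rank 3), the next 1 Mb 59.4% (rank 1) and the 1 Mb below it 37.4% (rank 13). Per kb of region the level of the window that holds Rosa26 ranked 35 of 146. The annotated start lay inside a region for the first-numbered row of 4 of the 9 members (Srgap3, Thumpd3, Lhfpl4 and Camk1). By first row, that held for 46.3% of the 41 genes in the window, 27.7% of 3124 genes of chromosome 6 and 10.2% of 52108 genes elsewhere. Of all 20 member rows, 7 started inside a region, among them later rows of Setd5 and Brpf1. The starts of Rad18 lay 126 to 204 bases from a region, and that of Ogg1 lay 4684 bases away.

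The regions with the highest counts were long and lay over Lhfpl4, Mtmr14, Cpne9, Camk1 and Creld1, not at Rosa26. The region over the Lhfpl4 start, chr6:113191185-113199444, had 133.6, 129.4, 118.4 and 137.0 CPM in DKO, against 143.0, 131.4, 143.1, 154.0 and 154.5 CPM in WT. Only 2 DKO libraries lay below every WT library, and the difference of -0.17 ± 0.09 in log2 was not called (edgeR adjusted p = 0.251). The region at the 3′ end of Mtmr14 and over Cpne9 (chr6:113276899-113285451) averaged 132 ± 9.9 CPM in DKO and 142 ± 18 in WT, that upstream of Brpf1 and over Cpne9 (chr6:113296106-113306005) 108 ± 14 in DKO and 115 ± 24 in WT, and that over Camk1 (chr6:113337102-113345811) 86.9 ± 4.4 in DKO and 101 ± 18 in WT. The region over Camk1 was not called (log2 -0.23, edgeR adjusted p = 0.177), but passed the threshold without WT replicate 1 (log2 -0.33, edgeR adjusted p = 0.0156). Per kb the 4 regions held 10.9 to 16.7 CPM over the 9 libraries.

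Called regions left a gap at Rosa26 itself but were dense around it. In the 100 kb from chr6:113000000-113099999, which holds the gap, 32 regions covered 58543 bases. Per kb of region they held 9.11 CPM in DKO and 10.5 in WT. No region lay in the 8.63 kb from chr6:113069499-113078131, which holds most of Gt(ROSA)26Sor. The nearest tested region on one side (chr6:113069055-113069498, called in DKO alone) had 4.93 ± 1.7 CPM in DKO and 3.17 ± 1.7 in WT, and that on the other side, 8.69 kb off in Setd5, 9.41 ± 2.8 in DKO and 12.5 ± 3.7 in WT. Neither changed (log2 0.62 ± 0.35 and -0.45 ± 0.22, edgeR adjusted p = 0.311 and 0.234). Per kb these nearest regions held 8.90 and 9.88 CPM over the 9 libraries, beside 9.90 over the regions of the whole window. The promoter rows of Gt(ROSA)26Sor held 0 and 4 counts in all. They overlap those of Setd5 and keep only 0 and 19 bases free of other rows, so these counts give no level.

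Of the 290 regions 237 were tested, and 4 fell while 0 rose in DKO. Those 4 are 1.69% of the tested regions, where 1.88% of all 40418 tested regions fell and 2.16% rose (4.03% either way), so the share that fell was near the background. By DESeq2, 1 fell. An unadjusted p under 0.05 was reached by 46 of the 237, or 19.4%, against 19.5% of all regions.

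The region that changed and was called in both genotypes lies over Creld1 and Prrt3 (chr6:113491629-113498615), 425 kb from Rosa26. It had 80.9, 87.8, 81.4 and 85.2 CPM in DKO, against 92.7, 91.3, 114.7, 111.5 and 109.2 CPM in WT. Every DKO library lay below every WT library, as in 7 of the window's tested regions (2.95%, against 3.4% of all regions), and the fall was -0.32 ± 0.10 in log2 (edgeR adjusted p = 0.0416). The call was lost when any 1 library other than WT replicate 1 or 2 was left out (edgeR adjusted p up to 0.139).

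The other 3 that fell had been called in WT alone, so their direction follows in part from how regions were chosen. All 27 tested regions of that class were lower in DKO. Within Setd5, chr6:113092802-113094362 averaged 7.18 ± 1.3 CPM in DKO and 12.1 ± 2.9 in WT (log2 -0.77 ± 0.23, edgeR adjusted p = 0.0356), and chr6:113086876-113087891 averaged 5.04 ± 2.7 in DKO and 9.28 ± 2.8 in WT (log2 -0.85 ± 0.27, edgeR adjusted p = 0.0472). In both, DKO and WT libraries overlapped. Within Srgap3, chr6:112928345-112928782 had 3.00, 1.85, 3.00 and 2.48 CPM in DKO and 4.42, 7.66, 5.79, 5.07 and 6.43 CPM in WT, with no overlap (log2 -1.14 ± 0.35, edgeR adjusted p = 0.0393). Each of these calls was lost on leaving out 1 or more single libraries, and the number that fell ran from 0 (without DKO replicate 2) to 25 (without WT replicate 1). It was 2 without DKO replicate 1 or WT replicate 3 or 4, and 1 without any other library. Without WT replicate 1, 10.4% of the window's tested regions fell, against 3.66% of all tested regions and 6.28% of the rest of chromosome 6. In that fit 14.1% fell in the 1 Mb below the window and 9.24% in the 1 Mb above it.

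**Figure D2:**
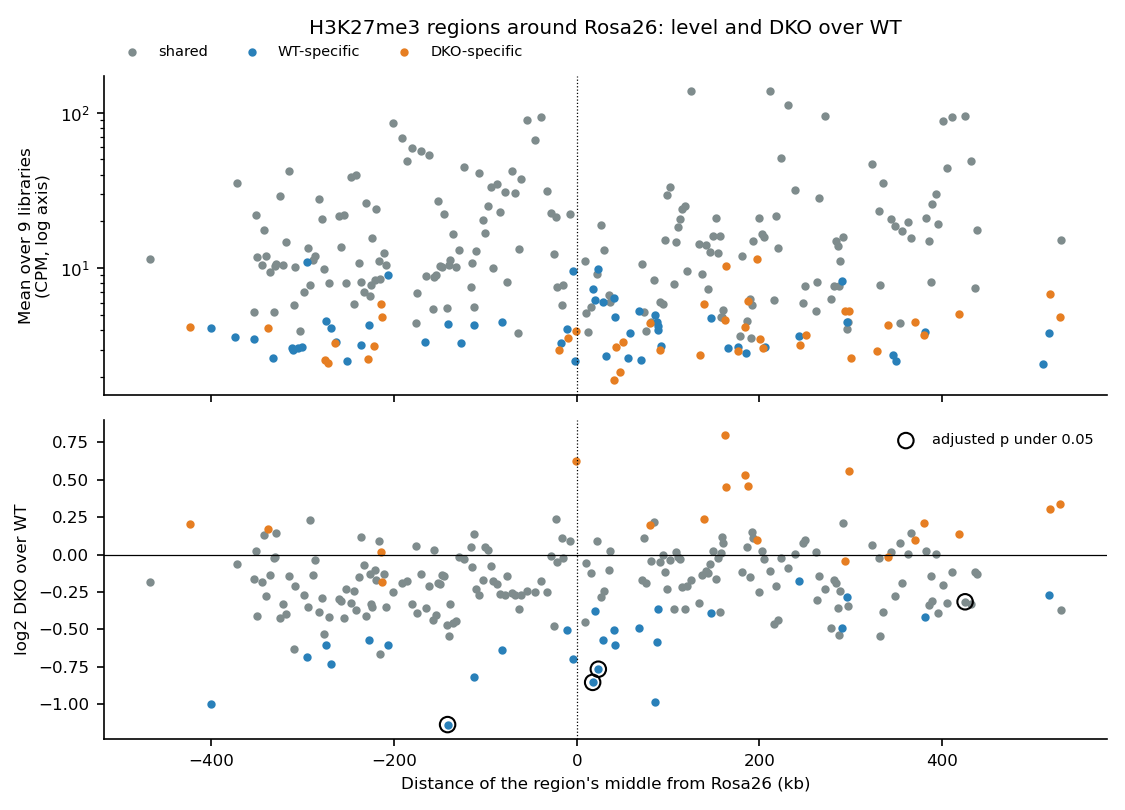
The 290 regions by distance of their middle from Rosa26 (horizontal axis, kb), with the mean CPM over 9 libraries on a log axis above and the log2 ratio of DKO over WT of the 237 tested regions below, coloured by the genotype in which they were called. Rings mark the 4 regions with an adjusted p under 0.05, and 180 of 237 points lie below 0 (157 with library totals as the scale).

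Small differences in the same direction ran across the window. Of the tested regions 180 were lower and 57 higher in DKO (157 and 80 when scaled by library totals), with a median log2 ratio of -0.17, against -0.02 over all regions, -0.18 over the rest of chromosome 6 and 0.09 over other chromosomes. The 1 Mb below the window had a median of -0.28 with 14 of 268 regions fallen, and the 1 Mb above it -0.20 with 3 of 247. These values include regions called in 1 genotype alone, of which 27 of 27 (WT) and 3 of 20 (DKO) in the window were lower. Among regions called in both, 150 of 190 were lower, with a median of -0.17. That median was -0.15 over the rest of chromosome 6, 0.013 over other chromosomes, -0.05 over all regions, and -0.23 and -0.20 in the 1 Mb below and above. All 10 bins of 100 kb were lower in DKO (9 of 10 with library totals), from -0.06 at 180 kb to -0.25 at -220 kb from Rosa26. Across the 237 regions, which share the same libraries, the log2 ratio had a Pearson r of 0.07 and a Spearman coefficient of 0.05 with absolute distance from Rosa26. Whether the window differs from the rest of the chromosome was not tested.

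Summed over the window, regions took 0.413%, 0.389%, 0.416% and 0.436% of the region counts in the 4 DKO libraries, against 0.355%, 0.436%, 0.436%, 0.514% and 0.498% in the 5 WT libraries. WT replicate 1 was the lowest of all and the groups overlapped (mean 0.413 ± 0.019% in DKO and 0.448 ± 0.063% in WT). As a share of chromosome 6 counts alone the window took 2.00 ± 0.02% in DKO and 2.00 ± 0.10% in WT. Total H3 in the same regions took 0.584% and 0.596% in DKO and 0.640% and 0.610% in WT, so both DKO libraries lay below both WT libraries. The log2 ratio of DKO over WT of the mean shares was -0.083 for total H3, beside -0.114 for H3K27me3. The H3K27me3 share divided by the mean H3 share of the genotype was 0.701 ± 0.033 in DKO and 0.716 ± 0.101 in WT. This SD is over the H3K27me3 libraries and leaves out the spread of the H3 libraries. The DKO library numbered 4 was divided by H3 of number 13. Over the rest of chromosome 6 the same ratio of shares was 0.735 ± 0.039 in DKO and 0.771 ± 0.080 in WT. In DKO and WT it was 0.673 and 0.745 in the 1 Mb below the window, and 0.742 and 0.782 in the 1 Mb above. For total H3, edgeR called 0 of 140 tested regions of the window, against 0.0211% of all regions, and DESeq2 called 0. An unadjusted p under 0.05 in edgeR was reached by 8 of the 140, beside 1169 of 18938 over all regions. The window's median log2 ratio in total H3 was -0.10, against -0.05 over the rest of chromosome 6 and -0.0001 over all regions. It was -0.07 in the 1 Mb below the window and -0.04 in the 1 Mb above. On simulated counts this fit of 2 against 2 libraries recovered 1.5%, 14.9% and 53.0% of changes of 1.5, 2 and 3-fold, so smaller changes would mostly be missed. The part of total H3 in the H3K27me3 differences was not tested.

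**Figure D3:**
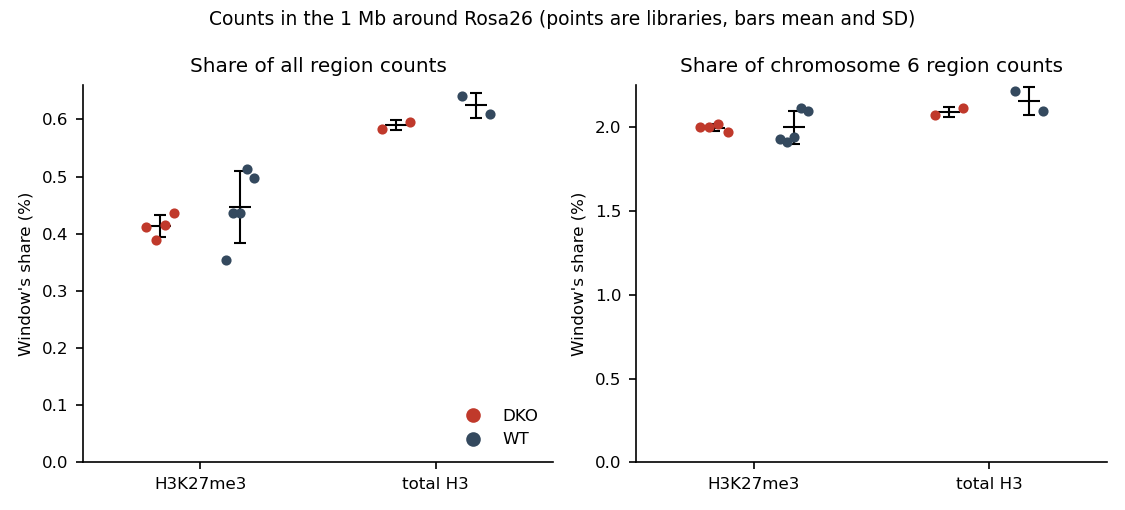
Share of counts in the 1 Mb around Rosa26 (vertical axis, %) of all region counts at the left and of chromosome 6 region counts at the right, for H3K27me3 and total H3, with 1 point per library, DKO left of WT, and bars for the mean and SD. The DKO and WT points overlap for H3K27me3 in both panels, with WT replicate 1 lowest in the left one. For total H3 both DKO points lie below both WT points at the left and the groups overlap at the right.

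The labels mark some libraries as Old or New (DKO replicates 3 and 4, WT replicates 4 and 5) without saying what the words mean, and the others as neither. Among libraries marked Old or New, the window took 0.416% and 0.436% in DKO and 0.514% and 0.498% in WT, so both DKO libraries were lower. The rest of chromosome 6 showed the same order in these libraries, with 20.2% and 21.7% in DKO and 23.8% and 23.2% in WT. Among the others the window took 0.413% and 0.389% in DKO and 0.355%, 0.436% and 0.436% in WT, and the groups overlapped. The median log2 ratio of the window's regions was -0.30 in the Old and New libraries and -0.06 in the others. Over the rest of chromosome 6 it was -0.24 and -0.12. With all libraries of both sets except WT replicate 1, it was -0.26 in the window and -0.24 over the rest of chromosome 6. The difference between the 2 sets of libraries was not tested.

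**Figure D4:**
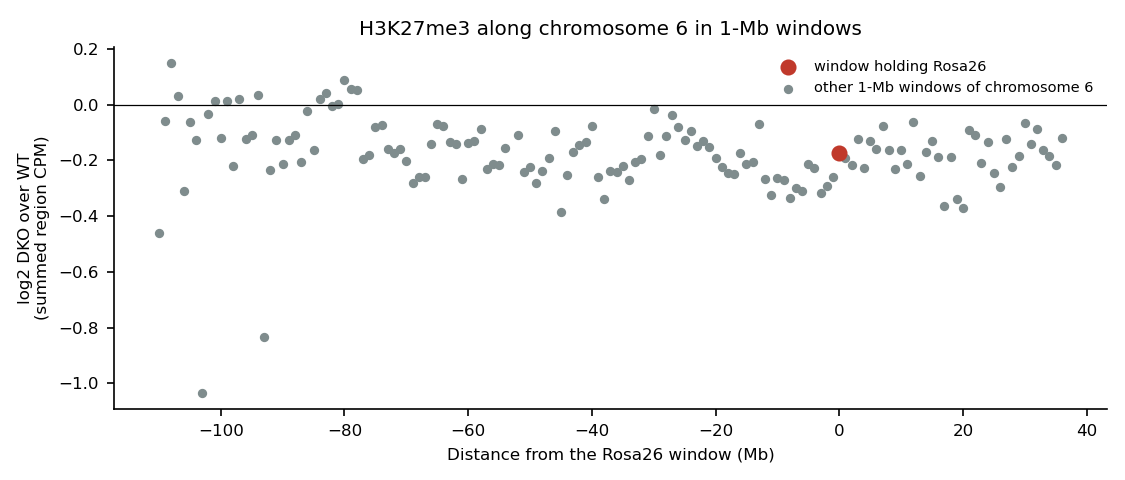
Log2 ratio of DKO over WT of summed region CPM (vertical axis) in 146 windows of 1 Mb along chromosome 6, by distance from the window that holds Rosa26 (horizontal axis, Mb). The Rosa26 window lies at -0.17, with 71 of the other 145 windows more negative, and 133 of those 145 lie below 0 (127 with library totals as the scale).

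Since 2 members had no countable promoter, region counts were also summed over each gene body and 2000 bases on either side, and every gene was fitted again. A region that touched a gene or its flanks was counted whole, so a sum can hold a neighbour's mark. The region at the 3′ end of Mtmr14 and over Cpne9 gave 1360 DKO and 1625 WT counts of the 6176 in the Mtmr14 sum. The region over Cpne9 upstream of Brpf1 gave 1133 DKO and 1338 WT counts of the 3714 in the Brpf1 sum. Levels below are CPM of these sums and compare genes only per kb of region. No member was called, where 14.8% of 13784 genes were. All 9 log2 ratios were below 0 (6 of 9 with library totals as the scale), where the median over all genes was -0.002. Of the tested regions of chromosome 6 outside the window, 71.9% were also below 0. An unadjusted p under 0.05 in edgeR was reached by 3 members. The share of all genes that reach it was not counted, so this number is not read as a result about the members. DESeq2 also called 0.

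Among the neuronal genes, Srgap3 carried 94 regions over 64.5% of its length and had 716, 630, 704 and 750 CPM in DKO, against 598, 812, 809, 1004 and 923 CPM in WT. WT replicate 1 was again the lowest library, and all 4 DKO libraries lay below the other 4 WT libraries. The log2 ratio was -0.24 ± 0.09 (edgeR adjusted p = 0.0641). It passed the threshold when WT replicate 1 was left out (-0.32, edgeR adjusted p = 6.47e-05), with the Old and New libraries alone (-0.38, 0.000479), with their set as a term (-0.26, 0.0188) and with scaling factors from the region table (-0.24, 0.00908), but not among the libraries marked neither (-0.13, 0.611) or in DESeq2 (-0.24, 0.285). Lhfpl4, covered over 80.6% by 11 regions that were all called in both genotypes, averaged 180 ± 7.1 CPM in DKO and 201 ± 28 in WT (log2 -0.16 ± 0.08, edgeR adjusted p = 0.181). Camk1, covered over 87.3%, averaged 71.6 ± 3.8 in DKO and 82.6 ± 14 in WT (log2 -0.21 ± 0.10, edgeR adjusted p = 0.159).

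Among the chromatin genes, Setd5 had 107, 81.3, 96.0 and 112 CPM in DKO, against 82.0, 123, 106, 135 and 137 CPM in WT. DKO replicate 2 and WT replicate 1 were both low and the groups overlapped (log2 -0.24 ± 0.11, edgeR adjusted p = 0.145). Without WT replicate 1 the sums of Setd5, Lhfpl4 and Camk1 also passed (log2 -0.33, -0.22 and -0.29, edgeR adjusted p = 0.00293, 0.00852 and 0.00476), as they did with the Old and New libraries alone. Over all genes, 1267 rose and 1311 fell of 13716 without WT replicate 1. With the Old and New libraries alone, 857 rose and 755 fell of 14131. Brpf1 averaged 94.5 ± 14 CPM in DKO and 97.1 ± 24 in WT (log2 -0.04 ± 0.12).

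Of the repair genes, Rad18 had 4 regions over 4.25% of its length and averaged 25.6 ± 3.4 CPM in DKO and 28.0 ± 5.2 in WT (log2 -0.14 ± 0.13). Ogg1 averaged 22.3 ± 1.5 in DKO and 24.8 ± 3.9 in WT (log2 -0.15 ± 0.12). Thumpd3 and Mtmr14 differed least with Brpf1, both at -0.05 ± 0.10, and the ratios of these 3 genes turned positive (0.07 to 0.08) with library totals as the scale, which moved the median of all genes to 0.12. Gt(ROSA)26Sor, with 4 regions over 21.1%, averaged 13.3 ± 1.6 CPM in DKO and 17.2 ± 3.7 in WT (log2 -0.37 ± 0.15, edgeR adjusted p = 0.0994). The region in Setd5, 8.69 kb from Rosa26, gave 97 DKO and 148 WT counts of the 597 in the Gt(ROSA)26Sor sum. That sum passed the threshold without WT replicate 1 (log2 -0.43, edgeR adjusted p = 0.0357).

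Per kb of region, with regions shared with neighbours counted whole, the sums of Mtmr14 and Lhfpl4 were the densest in DKO (6.55 ± 0.59 and 6.51 ± 0.26 CPM per kb). In WT that of Lhfpl4 was the densest (7.27 ± 1.0). Setd5 was the least dense, with 4.20 ± 0.57 in DKO and 4.95 ± 0.97 in WT. Neighbours in this order did not differ beyond their SD. Divided by total H3 over the same bases, the mark was highest at Lhfpl4, at 0.873 in DKO and 0.864 in WT, and the other members lay between 0.572 and 0.768.

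**Figure D5:**
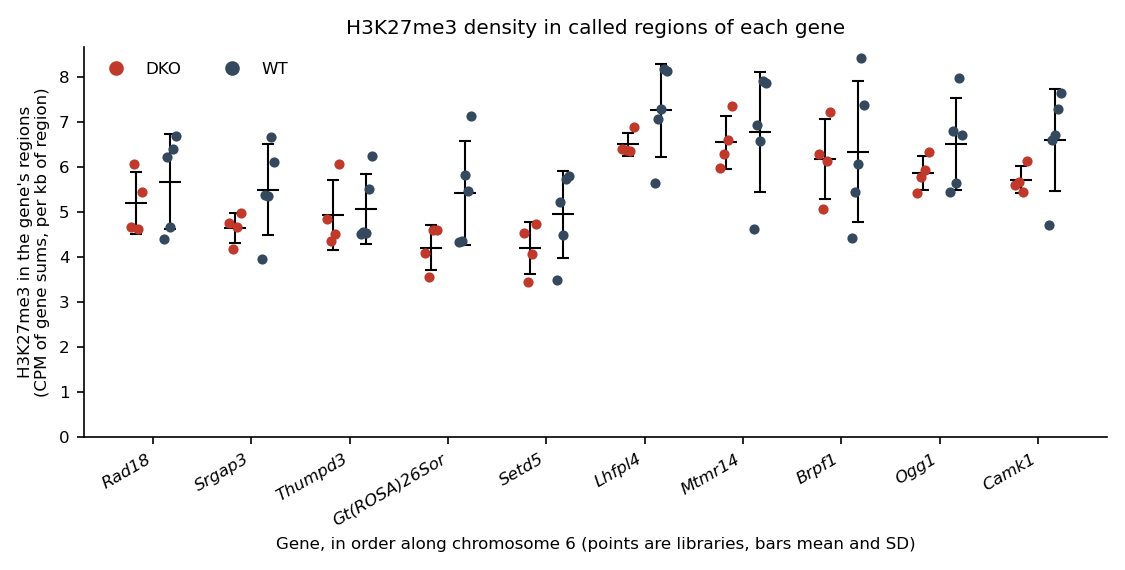
H3K27me3 in the regions of each gene with 2000 bases on either side (vertical axis, CPM of gene sums per kb of region), in order along chromosome 6 and with Gt(ROSA)26Sor among the 9 members, with 1 point per library, DKO left of WT, and bars for the mean and SD. The groups overlap at every gene, and WT replicate 1 is the lowest WT point at Srgap3 (598 CPM of gene sums).

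The promoter rows outside the window whose log2 CPM followed the summed window most closely over the 9 libraries were those of Psors1c2 on chromosome 17 (Pearson r = 0.970), Gm27690 on chromosome 6 (0.957), Gm1070 on chromosome 6 (0.954), Spata9 on chromosome 13 (0.947) and Gm24709 on chromosome 6 (0.944). Of the 50 closest genes, 28 (56%) lay on chromosome 6, where 8.21% of the 27773 candidate genes lie. These libraries share depth and scaling across all rows, and the likeness is a description of them.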

How the data were processed

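ChIP-seq of H3K27me3 (4 DKO and 5 WT libraries) and total H3 (2 and 2) was counted by the authors with featureCounts 2.0.3, per the file headers, and the deposited values are raw counts per promoter row and per region. Bowtie2, MACS2, bedtools, Subread and the mm10 build stand in the submitters' processing notes with no version. Regions are the authors' union of calls in each genotype, and the sources used here do not say whether replicates were pooled for them. The WT, DKO and H3 files hold the same regions and were joined. From these counts, 38 promoter rows of chromosome M or over 1 Mb were left out. Whole tables were fitted with edgeR 4.0.16 (filterByExpr with a minimum of 10 counts and 15 in total, TMM, quasi-likelihood F test, two-sided, Benjamini-Hochberg over all rows tested, threshold 0.05) in R 4.3.3, with DESeq2 1.42.0 as an alternative. SE is the log2 ratio divided by the square root of F. CPM use the same scaled library sizes. Gene sums were added after the tables had been seen, with RefSeq genes of GRCm38.p6. They were scaled first by their own TMM factors (0 members called) and then by those of the region table (1 called, Srgap3), and the first scaling was kept as the main one after both results had been seen. No 2 libraries were identical (0 of 36 and 0 of 6 pairs). Tested on simulated counts with 200 changed rows, the fits recovered 10.4%, 50.7% and 89.4% of changes of 1.5, 2 and 3-fold over 32647 promoter rows, and 10.4%, 61.2% and 87.9% over 40418 regions. For total H3 over 18938 regions they recovered 1.5%, 14.9% and 53.0%. Named were all members, the highest and the called regions and those at member promoters or nearest Rosa26, and the 5 promoters most like the window. Members, lists and tests were chosen with earlier results of these data known. Alternatives covered scaling, filters, library sets, the replicate block and each library left out.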

Additional observations from a re-analysis of the deposited data

Results flagged for a closer look

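Of 78 groups of libraries examined for a value far from the rest, 4 had one, and chance alone gives about 1 in 20. The Lhfpl4 promoter row was low in DKO replicate 3, at 108.8 CPM against 134.9 to 137.5 CPM in the other DKO libraries. The Lhfpl4 gene sum was high in DKO replicate 4, at 190.5 CPM against 175.7 to 176.8 CPM. The region chr6:112696812-112700177 at the Rad18 promoter was high in DKO replicate 2, at 43.45 CPM against 31.03 to 32.65 CPM. The region chr6:112944891-112949042 at the Srgap3 promoter was low in WT replicate 1, at 25.61 CPM against 47.95 to 53.77 CPM in the other WT libraries. That library also took the smallest share of counts on chromosome 6, and the part of this in the low value was not tested.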

How the results depend on the processing

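No promoter row of the window was called under any alternative run, no region rose, and no region was called for total H3. The count of regions that fell (4) became 1 in DESeq2, 0 with library totals, 8 with the library set as a term, 0 in libraries without Old or New and 0 with WT libraries of the stem rmce alone, and 0 to 25 when 1 library was left out. With the set term 3.38% of the window's tested regions fell, against 2.24% of all tested regions. Gene sums called (0) became 1 with the set term, 4 with Old and New alone, 1 with region scaling factors, and 0 to 4 with 1 library left out. With the replicate number as a block (replicate block, 4 pairs) 1 region fell. The numbers do not pair the libraries, since same-numbered deviations had correlations of -0.01 to 0.03 over promoter rows and -0.03 to 0.07 over regions. The block turned the sums of Thumpd3 (0.049), Mtmr14 (0.026) and Brpf1 (0.041) and the region at 112944891 (0.064).

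Other log2 ratios changed sign. With library totals they were 0.073 for Thumpd3, 0.073 for Mtmr14, 0.077 for Brpf1, 0.00096 for the region at 112696812 and 0.038 for that at 112944891. In libraries without Old or New they were 0.056 for the Srgap3 promoter, 0.00086 for Lhfpl4, 0.0025 for Camk1, 0.021, 0.031, 0.11 and 0.090 for the sums of Thumpd3, Mtmr14, Brpf1 and Rad18, 0.17, 0.078 and 0.0049 for the regions at 112696812, 112944891 and 113078132, and -0.26 for 113105426. With Old and New alone the Setd5 promoter was at 0.020 and the region at 113307390 at -0.32. That region was at -0.17 and 112944891 at 0.044 with WT libraries of the stem rmce alone. With factors from chromosomes other than 6 and 11, 113105426 and 113307390 were at -0.017 and -0.035, with the set term at -0.010 and -0.0063, and 113307390 without a filter at -0.0057.

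With 1 library left out, ranges that crossed 0 were -0.24 to 0.064 (Setd5 promoter), -0.067 to 0.30 (Ogg1 promoter), -0.17 to 0.047, -0.15 to 0.012 and -0.14 to 0.081 (sums of Thumpd3, Mtmr14 and Brpf1), -0.18 to 0.074, -0.31 to 0.067, -0.15 to 0.13, -0.18 to 0.016 and -0.077 to 0.13 (regions at 112944891, 113104506, 113105426, 113296106 and 113307390). The cause was not tested. Changes of 1.5-fold were mostly below what this depth recovers per promoter row or region.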
